A study of Homo sapiens with 2 samples.

Results

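To ask whether HA-RFX6 was found at the genes of its own family in HCC cells, the peak list was searched in and around RFX1, RFX2, RFX3, RFX4, RFX5, RFX6, RFX7 and RFX8, and around RFXANK and RFXAP, the partners of RFX5. These 10 genes were chosen by name, out of 20037 protein-coding genes, and each was taken with the 25 kb on either side. The list came from 1 ChIP library of MHCC-97H cells, a human hepatocellular carcinoma line, in which RFX6 with an HA tag was overexpressed and precipitated through the tag. A single input library of the same line is also in the series, and a processed file of it was not analysed here. There was no replicate, no ChIP without the tagged protein was analysed here, and the read depth was unknown. A peak list holds no expression, so the label of the cell line could not be checked against marker genes.

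RFX proteins share a winged-helix DNA-binding domain and recognise the X-box, a nearly palindromic element. Several of them bind it as homodimers or heterodimers. RFX1, RFX2, RFX3 and RFX4 are best known for driving genes of cilia, and RFX6 for the development of pancreatic endocrine cells. RFX5 acts with RFXANK and RFXAP at the X-box of major histocompatibility complex (MHC) promoters, next to a CCAAT element held by NF-Y. RFX7 is broadly expressed, and little is known of RFX8. Transcription factors of 1 family can regulate themselves or each other, and the question asked of the peak list was whether intervals lay at the members.

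The letters at the starts of RFX1, RFX4, RFX5 and RFX7 are shown because X-box or CCAAT letters occur there, and those of RFX3 because it was the member with an interval at its start. They were read from RefSeq (GRCh38.p14), which had windows for 7 of the 10 members. RFX2, RFX6 and RFX8 had none. All stretches are written 5′ to 3′ on the strand of the gene. Capitals mark matches to the X-box hexamer GTTGCC or its reverse complement GGCAAC, and to CCAAT or its reverse complement ATTGG. They also mark the X-box palindrome (GTTNCC, then any 2 bases, then GGNAAC, where N is any base). Matches on either strand are marked. RFX3 is shown for the 250 bases before its outer start (chr9:3526002-3526251, minus strand), RFX4 around a start inside the gene (chr12:106601088-106601159, plus strand), and RFX1 around its start (chr19:14006311-14006410, minus strand). RFX7 (chr15:56245133-56245202) and RFX5 (chr1:151347323-151347442), on the minus strand, are shown for stretches before their outer starts.
RFX3: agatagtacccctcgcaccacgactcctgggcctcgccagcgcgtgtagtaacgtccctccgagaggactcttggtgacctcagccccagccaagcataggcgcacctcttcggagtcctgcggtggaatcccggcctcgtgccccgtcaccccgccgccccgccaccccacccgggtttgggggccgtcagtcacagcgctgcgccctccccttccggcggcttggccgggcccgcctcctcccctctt
RFX4: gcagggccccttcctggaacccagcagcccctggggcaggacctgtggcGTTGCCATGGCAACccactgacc
RFX1: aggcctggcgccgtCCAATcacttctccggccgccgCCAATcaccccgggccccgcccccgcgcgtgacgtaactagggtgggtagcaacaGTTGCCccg
RFX7: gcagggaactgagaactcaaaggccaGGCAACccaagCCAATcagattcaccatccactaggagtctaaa
RFX5: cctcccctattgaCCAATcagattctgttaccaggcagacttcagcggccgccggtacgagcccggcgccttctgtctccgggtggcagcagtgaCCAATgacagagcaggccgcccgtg

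Of the 10 members, only RFX3 carried an interval. The midpoint of an interval lay within 1 kb of a start in 1 of 10 members (95% Wilson interval of the share 1.79% to 40.4%), compared with 15.8% of all protein-coding genes. By overlap with the gene and 2 kb on each side, the same single member was counted, compared with 20.3% of all protein-coding genes. Within 25 kb, RFX8 was added, giving 2 of 10 members (5.67% to 50.98%) against 31.1%. All 3 background shares lay inside the wide intervals of the members, so a difference from other genes was not detectable with 10 genes. No test was made, since genes of 1 library are not replicates.

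RFX3, which in vertebrates is needed for cilia and for islet cells, had its interval at 3525692 to 3525920 of chromosome 9, with a width of 229 bp. The gene runs from 3218297 to 3526001 on the minus strand. The interval began 81 bp inside the gene from the outer start and reached 309 bp into it, with its midpoint 195 bp from the start. This is a usual place in the list, where midpoints within 1 kb of a start lay at a median of 57 bp into the gene, the quartiles being 106 bp outside and 199.5 bp inside. The interval overlapped no other annotated gene. The non-coding gene LOC124902110 begins 484 bp outside the same end. Exons were not given in the gene table used here, so the position relative to exons is not stated.

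The interval at RFX3 was weak and narrow within the list. Its score, the authors' whole number per peak, was 22, at percentile 25.8 of 5019 intervals, and was shared by 288 intervals. Its width was at percentile 29.9. Among the 3162 genes with an interval at a start, the median of the highest score per gene was 33 (quartiles 26 and 45), and RFX3 was at percentile 18.8. The interval was listed on 1 line, as were 4094 of the 5019 intervals. It stood alone, as the next interval on the chromosome was 903693 bp away. A second annotated start of RFX3, 36567 bp inside the gene, had no interval within 1 kb.

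**Figure D1:**
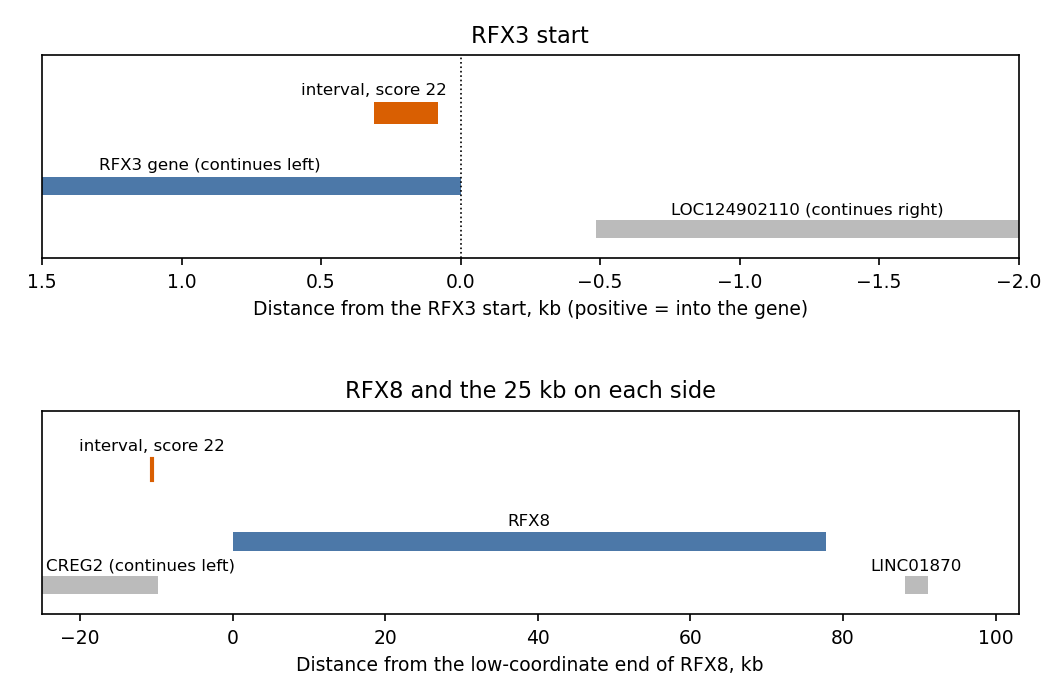
Map of the intervals at RFX3 and RFX8. The x axis gives the distance in kb from the RFX3 start (upper panel, positive values into the gene) or from the low-coordinate end of RFX8 (lower panel). Blue bars are the RFX genes, grey bars neighbouring genes, and orange bars the intervals, each with a score of 22. The RFX3 interval begins 81 bp inside the gene, whereas the RFX8 interval (202 bp, outlined and so drawn wider than to scale) lies in CREG2, where a pseudogene is not drawn.

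At RFX8, the interval within 25 kb belonged by position to a neighbour. It spanned 101386621 to 101386822 of chromosome 2 (202 bp), and its score of 22, on 1 line, equalled that at RFX3. It lay 10537 bp beyond the low-coordinate end of RFX8, inside CREG2, and 782 bp from the start of CREG2, which encodes a secreted glycoprotein. No interval lay inside RFX8 (101397359 to 101475112) or within 25 kb of its other end, where the next interval was 3963 kb away, at FHL2. When an interval was counted only for the protein-coding gene with the nearest end, RFX3 was the only member left.

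The other members had no interval within 25 kb, and their nearest intervals lay in or next to other genes. RFX1 (chromosome 19, 13961530 to 14006816), a founding member that both activates and represses, was 129.6 kb from an interval of score 32 at the start of ASF1B, a histone chaperone gene. RFX2 (chromosome 19, 5993164 to 6110500), which drives ciliary genes in the testis, was 88.6 kb from an interval of score 17. That interval lay across an end of the non-coding gene LOC105372255. RFX4 (chromosome 12, 106583004 to 106762803), a regulator of brain development, was 443.5 kb from an interval of score 32 next to NUAK1.

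At RFX6 itself (chromosome 6, 116877242 to 116932161), the factor that was overexpressed and precipitated, the nearest interval was 505.9 kb away. Scored at 42, that interval was 297 bp from a start of DSE, a gene of dermatan sulphate synthesis. On the other side no interval was found for 8167 kb. RFX6 therefore sat in a stretch of 8.73 Mb without any interval, which held 34 protein-coding genes. RFX7 (chromosome 15, 56087280 to 56245082), known as a growth-restraining factor, was 93.3 kb from an interval of score 63 that lay 210 bp from the start of NEDD4, a ubiquitin ligase gene.

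RFX5 and its partners had no interval either. RFX5 (chromosome 1, 151340640 to 151347252), the DNA-binding subunit, was 464.1 kb from an interval of score 25 at the start of ARNT. RFXANK (chromosome 19, 19192258 to 19201866), the ankyrin-repeat subunit, was 259.6 kb from an interval of score 27 within HOMER3. RFXAP (chromosome 13, 36819222 to 36829104), the third subunit, was 6969 kb from an interval of score 39 at UBL3. Around RFXAP, 19.6 Mb with 100 protein-coding genes held no interval.

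**Figure D2:**
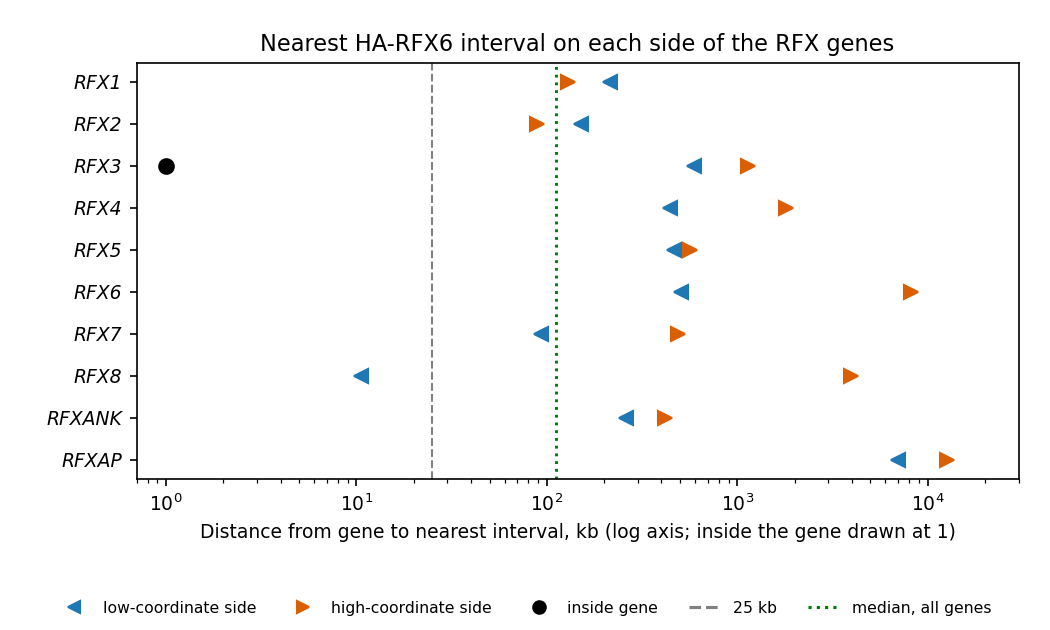
Distance in kb (log axis) from each member to the nearest interval on its low-coordinate side, on its high-coordinate side and, for RFX3, inside the gene (drawn at 1). The dashed line marks 25 kb, and the dotted line the median over protein-coding genes, 111.6 kb. Only RFX3 and RFX8 have an interval left of the dashed line, and RFXAP is the farthest from any interval.

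To judge these distances, all protein-coding genes on chromosomes with an interval were measured in the same way. The median distance from a gene to the nearest interval was 111.6 kb over 19974 genes, with quartiles of 10.5 and 533.1 kb. The members had a median of 194.6 kb, and 6 of 10 were farther away than the median gene. RFX2 and RFX7 were near the middle of all genes, at percentiles 46.2 and 47.0. RFX4, RFX5 and RFX6 were close to the upper quartile, at percentiles 72.4, 73.0 and 74.3. RFXAP was at percentile 97.5. Among the genes of their own chromosome, RFXAP was at percentile 89.1, RFX4 at 87.5, and RFX5 and RFX6 both at 77.4. RFXANK was at 65.5, RFX7 at 59.2, RFX1 at 53.1, RFX2 at 47.3, RFX3 at 23.9 and RFX8 at 21.1.

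The share of genes with an interval at a start also differed between the chromosomes and neighbourhoods of the members, without following the distances throughout. On chromosome 13, which carries RFXAP, 17 of 338 protein-coding genes (5.03%) had an interval at a start, compared with 23.7% on chromosome 9, which carries RFX3, and 23.99% on chromosome 15, which carries RFX7. Chromosome 12, with RFX4, was at 22.8%, although RFX4 was far from an interval. Chromosome 19, with RFX1, RFX2 and RFXANK, was at 9.72%, and chromosome 1, with RFX5, at 13.9%. Chromosome 6, with RFX6, was at 15.1%, and chromosome 2, with RFX8, at 14.2%. Among genes within 500 kb of a member, an interval at a start was found for 8 of 33 around RFX2, 5 of 31 around RFXANK and 3 of 25 around RFX1. The list did hold intervals at neighbours of these members. The counts were 2 of 7 around RFX7, 1 of 8 around RFX4, 1 of 7 around RFX8 and 1 of 13 around RFX6. No interval lay within 500 kb of RFX6 itself. Around RFX5, 1 of 38 neighbours had one, and around RFXAP none of 8. Around RFX3, none of the 3 neighbours had one, so its interval was the only one within 500 kb of the gene. The part of chromosome or neighbourhood in the result was not tested.

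The promoter letters were next set beside the intervals. Among 15 windows of 7 members, each running from 250 bases before to 50 bases after a start, the X-box palindrome was found once, at the inner start of RFX4. There it read GTTGCCATGGCAAC, from 106601137 to 106601150, and ran across the start. The hexamer alone was found right after the start of RFX1 and 94 bases before the outer start of RFX7, where a CCAAT followed 83 bases before the start. CCAAT also occurred 76 and 54 bases before the start of RFX1, and 177 and 95 bases before the outer start of RFX5. At the inner start of RFX3, CCAAT lay 140 bases before and its reverse complement 88 bases before. None of these windows had an interval within 1 kb of its start. The window at the outer start of RFX3, which had the interval, held neither the hexamer, the palindrome nor CCAAT. The interval of RFX3 lay wholly inside the gene, beyond the window, and its own letters were not analysed here.

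Matches to the hexamer GTTGCC and to the palindrome were about as frequent at starts without an interval as at starts with one. Other spellings, such as the gttacc in the RFX5 stretch, were not counted as the hexamer, so the X-box in a wider sense was not examined. Over 22199 windows of protein-coding genes, 12.6% held the hexamer, 0.514% the palindrome and 34.7% CCAAT. Of 3257 windows whose start had an interval within 1 kb, 413 held the hexamer (12.7%, 11.6% to 13.9%), compared with 2376 of 18942 windows without one (12.5%, 12.1% to 13.02%). The palindrome was present in 17 (0.522%, 0.326% to 0.834%) and 97 (0.512%, 0.420% to 0.624%) of these windows, respectively. CCAAT was present in 34.9% and 34.6%. An interval within 1 kb of a start need not cover the window. In the 2285 windows that an interval overlapped, 12.7% held the hexamer (11.4% to 14.1%) and 0.656% the palindrome (0.398% to 1.08%). CCAAT was in 34.1% of them (32.2% to 36.1%). The confidence intervals overlapped for each motif, and windows of a gene can overlap each other. The G and C content moved with the intervals, at a median of 69.0% in windows with an interval and 61.0% in windows without, and its part in these shares was not tested. A palindrome match contains the hexamer when its free letters spell it, so these counts are not independent. A match or its lack in a window says nothing of whether RFX6 binds there.

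**Figure D3:**
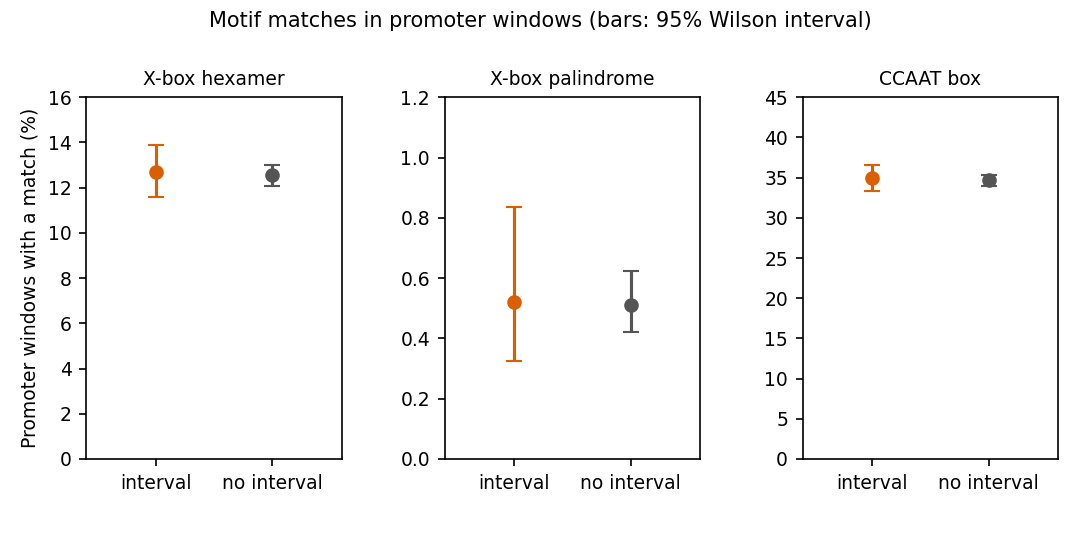
Share of promoter windows (y axis, %) that held the X-box hexamer, the X-box palindrome or a CCAAT box, for windows with an interval midpoint within 1 kb of the start (orange, n = 3257) and without (grey, n = 18942). Points are shares and bars are 95% Wilson intervals. The shares with and without an interval are nearly equal in each panel, for example 12.7% and 12.5% for the hexamer.

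Genes that work with the RFX5 complex, or that it regulates, were then examined as a list of 27 genes. An interval lay at a start of 3 of them (11.1%, 3.85% to 28.1%, against 15.8% of all protein-coding genes). By role, these were 2 of 4 genes for partners at the X-box and CCAAT element, none of 2 coactivator genes, none of 12 MHC class II genes and 1 of 9 MHC class I genes. NFYA and NFYB encode subunits of NF-Y, which binds CCAAT. The interval of NFYA (chromosome 6, 41073086 to 41073368) scored 62, at percentile 93.0 of the genes with an interval at a start. NFYB had 2 intervals on chromosome 12, scored at 27 (104137783 to 104138071) and 53 (104138173 to 104138454). The third NF-Y gene, NFYC, was 90.6 kb from an interval, and CREB1 was 649.3 kb away.

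The class I gene was TAP1, a subunit of the peptide transporter. Its intervals on chromosome 6 scored 39 (32853314 to 32853764) and 33 (32854077 to 32854304). The second lay 373 bp outside TAP1, and whether either belongs to a neighbouring gene was not examined. TAP2, 14.6 kb from the first interval of TAP1, was counted within 25 kb through it. The coactivator genes CIITA and NLRC5 were 285.3 and 57.5 kb from an interval. The HLA class II genes were between 36.3 kb (HLA-DOB) and 307.0 kb (HLA-DRB5) away, and CD74, the invariant chain gene, was 2465 bp away. Within 25 kb, 6 of the 27 genes had an interval (22.2%, 10.6% to 40.8%), compared with 31.1% of all protein-coding genes. The HLA genes lie in 1 region of chromosome 6 and are not independent of each other.

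**Figure D4:**
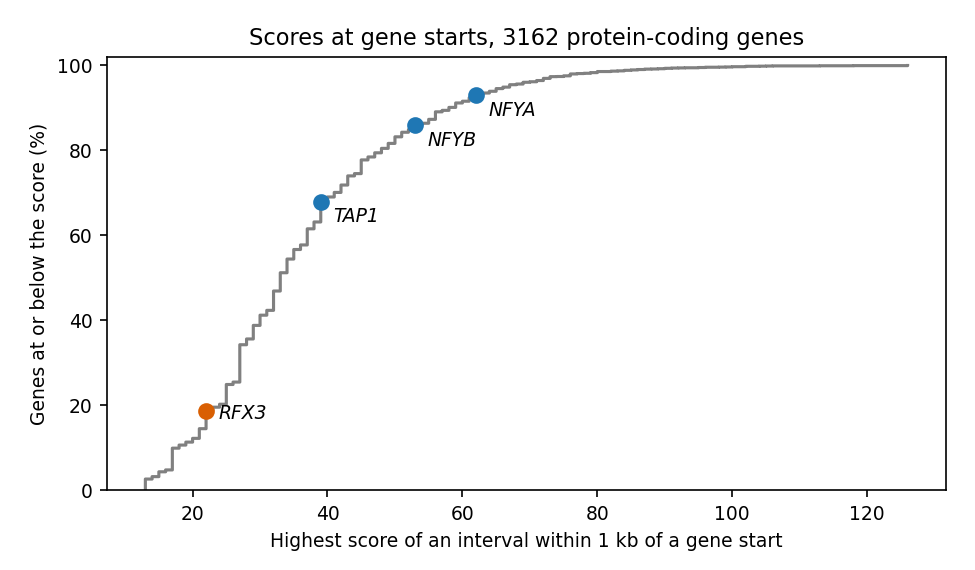
Cumulative share of the 3162 protein-coding genes with an interval at a start (y axis, %) by the highest score at the start (x axis, the authors' score). RFX3 (orange) is low on the curve at a score of 22, and TAP1, NFYB and NFYA (blue) are higher at 39, 53 and 62.

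Lastly, the members were set beside other families of transcription factors. Of all protein-coding genes, 15.8% had an interval at a start by the same rule. Among 51 forkhead (FOX) genes, which encode winged-helix factors too, 10 had an interval at a start (19.6%, 11.02% to 32.5%). They were FOXC1, FOXD2, FOXF2, FOXK2, FOXM1, FOXN2, FOXO6, FOXP4, FOXQ1 and FOXS1, with highest scores at the start from 17 (FOXP4) to 66 (FOXC1). Among 11 genes of the cell cycle factors E2F and TFDP, 4 had one (36.4%, 15.2% to 64.6%), namely E2F1, E2F2, E2F7 and TFDP1, with scores from 17 to 62. The confidence intervals of both families included the 15.8% of all protein-coding genes and overlapped the confidence interval of the RFX members. A difference between the families was not detectable with so few genes.

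**Figure D5:**
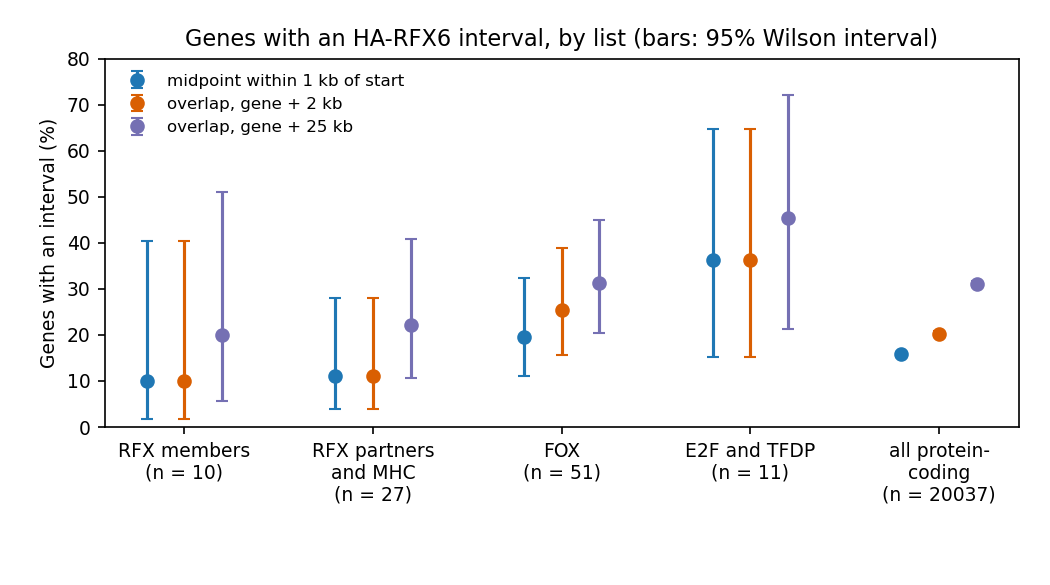
Share of genes with an interval (y axis, %) in each gene list, by the rule used (midpoint within 1 kb of a start, overlap with the gene and 2 kb, overlap with the gene and 25 kb). Bars are 95% Wilson intervals, which cover the counting of genes only. Of the 10 RFX members, 1, 1 and 2 are counted, and their Wilson intervals include the shares of all protein-coding genes.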

How the data were processed

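Chromatin of formaldehyde-fixed MHCC-97H cells was precipitated with an anti-HA antibody and sequenced. MACS2 2.1.0.2 is named in the submitters' processing notes. The aligner and the control are not given in the sources used here. The authors deposited a list of peaks with a whole-number score whose meaning is not stated, so the score was used only for ranking. The 6214 lines gave 5022 distinct intervals, each with its highest score, and 5019 on chromosomes 1 to 22 and X were used. In 1 line, digit separators were removed. Deposited starts were taken as 0-based, and coordinates are given 1-based.

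The processing notes name GRCh37. However, 55.9% of the interval midpoints lay within 1 kb of a RefSeq start of GRCh38.p14, compared with 4.44% and 4.42% after a move of 20 kb up or down, and on the chromosomes that carry the members with 48.9% to 75.0% compared with at most 7.35%. Coordinates were therefore read as GRCh38. Starts and strand were known for 15842 of 20037 protein-coding genes, and either gene end was used for the other 4195, including RFX2, RFX6 and RFX8.

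A gene was counted when an interval midpoint lay within 1 kb of a start, or when an interval overlapped the gene with 2 kb or 25 kb beside it by at least 1 bp. All members, the genes of the intervals near them, and listed genes with an interval were to be named. The protein alignment that had been planned was not made, since no protein sequence was used here. The members and lists were chosen with earlier results of these data known. Shares have Wilson intervals at 95%, which cover counting only, and with 1 library no p-value was given. The rule for an interval at a start was tested on simulated intervals, and the other procedures were not. Python 3.11.15 with numpy 2.4.6, pandas 2.3.3, scipy 1.17.1 and matplotlib 3.10.9 was used.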

Additional observations from a re-analysis of the deposited data

How the results depend on the processing

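With scores of at least 30, the median of the list, no member had an interval: the count was 0 at a start, 0 overlapping and 0 within 25 kb, with 0 intervals in the regions, compared with 9.66%, 12.5% and 20.6% of all protein-coding genes. With 10 kb in place of 25 kb beside the gene, 1 member and 1 interval were left, against 24.6% of all protein-coding genes. The same numbers, 1 and 1, were found when the nearest protein-coding gene end had to be that of the member. For that rule, no share of all genes was computed. The RFX8 interval is the one lost in both, by construction. Scores of at least 20, merging of intervals closer than 1 kb, and intervals on 1 line only left each count of members as it was. So did windows of 2 or 5 kb, any overlap, either gene end, flanks of 0, 5 or 50 kb, and the midpoint in place of overlap. Under these settings, the share of all protein-coding genes ranged from 12.1% to 18.4% at a start. It ranged from 16.4% to 22% by overlap with the gene and its flank, and from 26.4% to 38.3% within 25 or 50 kb. In the list of 27 partner and MHC genes, the overlapping count of 3 became 4 with a flank of 5 kb, against 22% of all protein-coding genes. It was 3 in each other alternative, as was the count at a start. With scores of at least 30, the 3 of 27 (11.1%) stood against 9.66% at a start and 12.5% by overlap. With all scores, these shares were 15.8% and 20.3%. All of these shares lay inside the list's Wilson interval of 3.85% to 28.1%. No paired analysis was possible because the series holds no more than 1 ChIP library, and so no replicate could be left out. The read depth is unknown, so a member without an interval is not shown to be unbound.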
